A study of Mus musculus with 9 samples.

Results

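The genes described here are those of the B cell receptor (BCR) signaling pathway, chosen by name: 42 of the 22154 genes in the gene-level count table, all 42 of which were among the 11098 genes with enough reads to be tested. RNA-sequencing was performed on B cells isolated from the whole spleen of 9 mice of the C57/BL6NTac strain, 1 library per mouse. The 3 Eµ-MTCP1 mice (Z2551, Z2606 and Z2641) all came from 1 founder line (Z36) and carried human MTCP1 under a VH promoter and the IgH Eµ enhancer, which drive expression in immature and mature B cells. The 3 Eµ-TCL1 mice (B4376, B4437 and C1594) carried human TCL1A under the same kind of control. The 3 wildtype mice (Z2754, Z2755 and Z2785) carried no transgene. The transgenic mice had developed leukemia, and the ages of the sequenced mice are not given in the sources used here. The comparisons ask whether transcripts of the BCR pathway differed between each leukemia and wildtype B cells, and between the leukemias.

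The BCR is a membrane immunoglobulin held in a complex with the signaling chains CD79A and CD79B. When antigen is bound, Src family kinases phosphorylate tyrosines in the tails of these chains, SYK docks there, and a complex of BLNK, BTK and phospholipase C gamma releases calcium and activates protein kinase C, Ras, NF-kappaB and the NFAT transcription factors. Phosphatases, ubiquitin ligases and inhibitory receptors restrain the signal, and kinases of this pathway are drug targets in chronic lymphocytic leukemia (CLL).

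The tails of both chains carry an immunoreceptor tyrosine-based activation motif, the site where the pathway starts and the reason that the coding bases are shown. The stretch runs from the codon of the first motif tyrosine through the 4-codon block of the second one, with the tyrosine codons in capitals. It holds 45 bases (15 codons) in each gene, joined across an intron, and 31 of the 45 bases are the same in both. The bases are those of the GENCODE transcript with most reads, on build GRCm38, at chr7:24901296-24901469 on the plus strand for Cd79a (codons 182 to 196 of 220) and at chr11:106311867-106312012 on the minus strand for Cd79b (codons 195 to 209 of 228).
Cd79a: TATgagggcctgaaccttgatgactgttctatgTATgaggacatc
Cd79b: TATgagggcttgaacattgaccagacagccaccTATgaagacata

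Reads were counted on coding sequences, with 6452397 to 8037841 assigned reads per library. Values are given as normalized CPM (counts scaled to a common total of assigned reads, TMM-normalized), and differences as log2 fold changes ± standard error (SE). Adjusted p-values are those of edgeR's quasi-likelihood test over all 11098 genes with all 9 libraries in 1 fit, and a gene is called higher or lower when that value is under 0.05. The human MTCP1 transcript reached 11.1 to 12.3 on the authors' normalized log2 scale in the Eµ-MTCP1 mice against 5.85 to 6.19 in the other mice, and human TCL1A reached 14.9 to 15.6 in the Eµ-TCL1 mice against 6.04 to 6.96 in the others. B cell markers summed to 7278 to 10831 CPM in the 9 libraries. Among markers of other cells, the 12 T cell markers summed to 7.37 to 25.9 CPM in 8 libraries and to 96.0 CPM in Eµ-TCL1 mouse B4376, and the 8 NK cell markers summed to 132.7 CPM in that mouse, 41.8 to 80.4 CPM in the wildtype mice and 4.48 to 25.1 CPM in the other transgenic mice. Myeloid markers summed to 368 to 2225 CPM in 8 libraries and to 4047 CPM in wildtype mouse Z2755, mostly from Mpo, at 2319 CPM there, and its library was the only one run on lane 1. These are bulk samples, so fewer cells of a type and less RNA per cell cannot be told apart.

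Most genes of the BCR pathway were not called in either leukemia. Against wildtype, 2 of the 42 genes were higher and 1 was lower in Eµ-MTCP1 B cells, and 2 were higher and 3 were lower in Eµ-TCL1 B cells. Those are 7.14% and 11.9% of the 42 genes, beside 9.52% (5.46% higher, 4.06% lower) and 9.29% (5.14% higher, 4.15% lower) of all genes tested, so the share of genes called was close to the background in both comparisons of this fit. The 3 genes called in both comparisons, which share the wildtype mice, were the phosphatase gene Ptpn22 and the transcription factor gene Nfatc1, both higher, and the exchange factor gene Vav3, lower. Fyn and Itpr2 were called lower in the Eµ-TCL1 comparison alone, but the direct comparison of the leukemias called neither. The median log2 fold change over the 42 genes was -0.13 in Eµ-MTCP1 and -0.09 in Eµ-TCL1, beside -0.03 and -0.01 over all genes tested, and the median size of the change was 0.44 and 0.39, beside 0.43 and 0.41. Without wildtype mouse Z2755, 3 genes were called in each comparison, beside 5.03% and 4.87% of all genes, and without Eµ-TCL1 mouse B4376, 4 were called in each, beside 8.56% and 7.37%. The Eµ-TCL1 count was also 3 without wildtype mouse Z2754, beside 4.65% of all genes, and 8 without Eµ-MTCP1 mouse Z2641, beside 10.9%. The Eµ-MTCP1 count was 5 without mouse Z2641 or without Eµ-TCL1 mouse B4437, beside 7.95% and 8.71% of all genes. The share of the 42 genes called was above that of all genes in each of the fits just named. Without Eµ-MTCP1 mouse Z2606 it was below in Eµ-MTCP1, with 3 called beside 8.32% of all genes. In Eµ-TCL1 it was near that of all genes there, with 4 called beside 9.36%. DESeq2 called 8 and 10 of the 42 genes, where it called 14.8% and 15.3% of all genes.

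**Figure D1:**
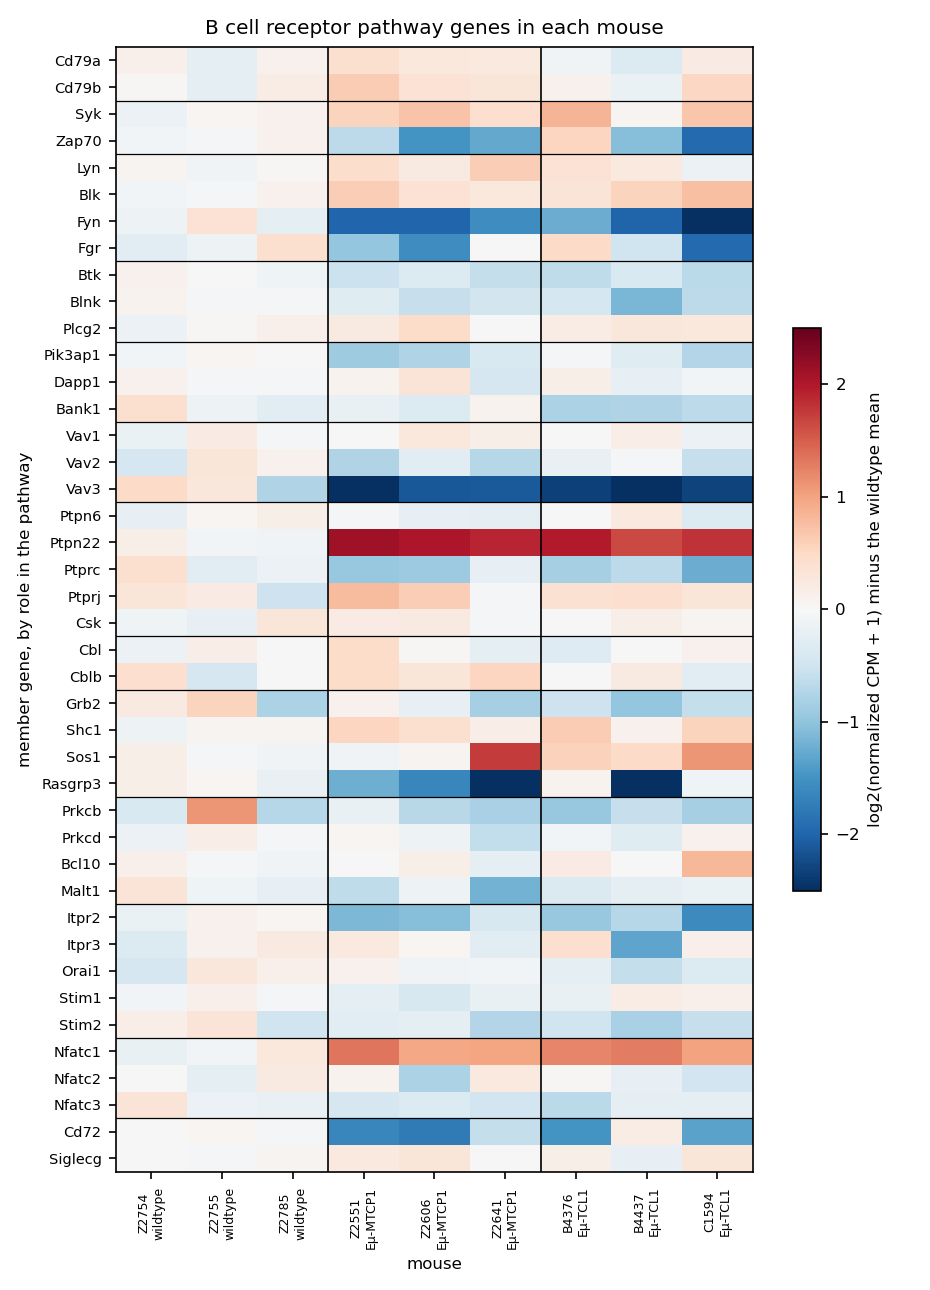
Each row is 1 of the 42 BCR pathway genes, ordered by role, and each column 1 mouse. Color gives log2(normalized CPM + 1) minus the mean of the 3 wildtype mice, with colors held at the ends of the scale beyond a difference of 2.5. Ptpn22 and Nfatc1 were above and Vav3, Fyn and Itpr2 below every wildtype mouse in all 6 transgenic mice, while Rasgrp3, Cd72 and Fgr varied between mice of the same leukemia.

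The transcripts of the receptor chains were abundant in all groups and neither was called. Cd79a was the most abundant of the 42 genes per unit of length in every group, with a mean of 2988 TPM (a length-corrected level scaled to a common total) ± 183 (SD, n = 3) for Eµ-MTCP1, 2507 ± 428 for Eµ-TCL1 and 3110 ± 434 for wildtype B cells. Cd79b was second in every group, at 1772 ± 211, 1580 ± 362 and 1664 ± 163 TPM. Cd79a stood at 3614 to 4064 CPM in the Eµ-MTCP1 mice, 2434 to 3551 CPM in the Eµ-TCL1 mice and 2593 to 3357 CPM in the wildtype mice. The Eµ-MTCP1 mice were all above the wildtype mice and the Eµ-TCL1 mice overlapped them, yet the log2 fold changes of 0.30 ± 0.22 (adjusted p = 0.437) and -0.06 ± 0.22 (adjusted p = 0.891) were not called. Cd79b stood at 2285 to 2886, 1654 to 2659 and 1600 to 2131 CPM for Eµ-MTCP1, Eµ-TCL1 and wildtype, with log2 fold changes of 0.43 ± 0.24 (adjusted p = 0.295) and 0.17 ± 0.24 (adjusted p = 0.711). For both chains the 95% interval of either change lay within 2-fold.

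Syk, the kinase that binds the phosphorylated chains, stood at 488, 539 and 442 CPM in Eµ-MTCP1 mice Z2551, Z2606 and Z2641, at 599, 348 and 534 CPM in B4376, B4437 and C1594 of the Eµ-TCL1 group, and at 299, 341 and 354 CPM in the wildtype mice Z2754, Z2755 and Z2785. All Eµ-MTCP1 mice and 2 of the 3 Eµ-TCL1 mice were above every wildtype mouse, and Eµ-TCL1 mouse B4437 was among them. For Syk the log2 fold changes were 0.56 ± 0.22 (95% interval 0.07 to 1.06, adjusted p = 0.151) and 0.57 ± 0.22 (95% interval 0.08 to 1.07, adjusted p = 0.143). Syk was not called in any of the 19 alternative analyses, although the table on full transcripts held 4.13 times as many Syk reads as the table on coding sequences.

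Zap70, the SYK relative of T and NK cells whose protein marks an aggressive form of human CLL, was near the limit of counting. It had 11, 4 and 5 reads in the Eµ-MTCP1 mice (Z2551, Z2606, Z2641), 39, 9 and 1 reads in the Eµ-TCL1 mice (B4376, B4437, C1594) and 26, 30 and 25 reads in the wildtype mice (Z2754, Z2755, Z2785). The highest value, 5.38 CPM, was in mouse B4376, the library with the highest T and NK cell marker sums, and the part of those cells in it was not tested. Per unit of length, Zap70 made 0.0317% to 1.13% of the summed Syk and Zap70 level in the 6 transgenic mice, beside 1.26% to 4.50% in the wildtype mice. The log2 fold changes of -1.68 ± 0.98 and -0.63 ± 0.93 were not called (adjusted p = 0.314 and 0.720), and the Eµ-TCL1 value was -2.40 without B4376 (adjusted p = 0.177) and -0.08 without C1594 (adjusted p = 0.971).

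The Src family kinases, which phosphorylate the receptor chains first, held abundant genes that were not called and a low gene, Fyn, that was called lower in Eµ-TCL1. Lyn, the main such kinase of B cells and also an inhibitor through other receptors, stood at 491, 425 and 553 CPM in the Eµ-MTCP1 mice (Z2551, Z2606, Z2641), 469, 427 and 326 CPM in the Eµ-TCL1 mice (B4376, B4437, C1594) and 381, 339 and 369 CPM in the wildtype mice (Z2754, Z2755, Z2785). The Eµ-MTCP1 mice lay above the wildtype mice and the Eµ-TCL1 mice overlapped them, with log2 fold changes of 0.43 ± 0.20 (adjusted p = 0.207) and 0.17 ± 0.20 (adjusted p = 0.652). Blk, a B cell Src family kinase, was above every wildtype mouse in all 6 transgenic mice, at 418 to 588 CPM against 331 to 377 CPM, without being called (log2 fold changes 0.42 ± 0.19 and 0.55 ± 0.19, adjusted p = 0.201 and 0.101). Fgr, more typical of myeloid cells, ranged from 16.7 to 93.2 CPM in the transgenic mice around the 55.0 to 88.9 CPM of the wildtype mice.

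Fyn, a Src family kinase best known from T cells, had few reads in the leukemias: 47, 54 and 65 in Eµ-MTCP1 mice Z2551, Z2606 and Z2641 and 98, 61 and 9 in B4376, B4437 and C1594 of the Eµ-TCL1 group, against 245, 397 and 186 in the wildtype mice Z2754, Z2755 and Z2785. That is 7.67 to 10.6 CPM, 1.26 to 13.5 CPM and 28.1 to 43.0 CPM, and the transgenic mice did not overlap the wildtype mice. Fyn was lower in Eµ-TCL1 by 4.55-fold (log2 fold change -2.18 ± 0.60, adjusted p = 0.0475). The value for Eµ-MTCP1 was -1.97 ± 0.60 (adjusted p = 0.0668). The calls lay near the threshold. The Eµ-TCL1 call was lost in 10 of 19 alternatives, including those without Z2551 (adjusted p = 0.0654), Z2606 (0.0536), B4437 (0.110), Z2754 (0.113), Z2755 (0.140) or Z2785 (0.0777). The Eµ-MTCP1 value was called in 6 alternatives, among them those without B4376 (adjusted p = 0.0433) or C1594 (adjusted p = 0.00468). The summed NK cell markers were also higher in the wildtype mice than in 5 of the 6 transgenic mice. Of the single NK cell markers, only Gzma and Prf1 separated the wildtype mice from those 5. Ncr1, Eomes, Nkg7, Klrk1, Klrb1c and Klre1 overlapped. The summed T cell markers overlapped between the wildtype mice and those 5 as well. In B4376 the NK cell sum stood at 132.7 CPM, above the wildtype mice, with Fyn still at 13.5 CPM. The part of other cells in the Fyn difference was not tested.

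**Figure D2:**
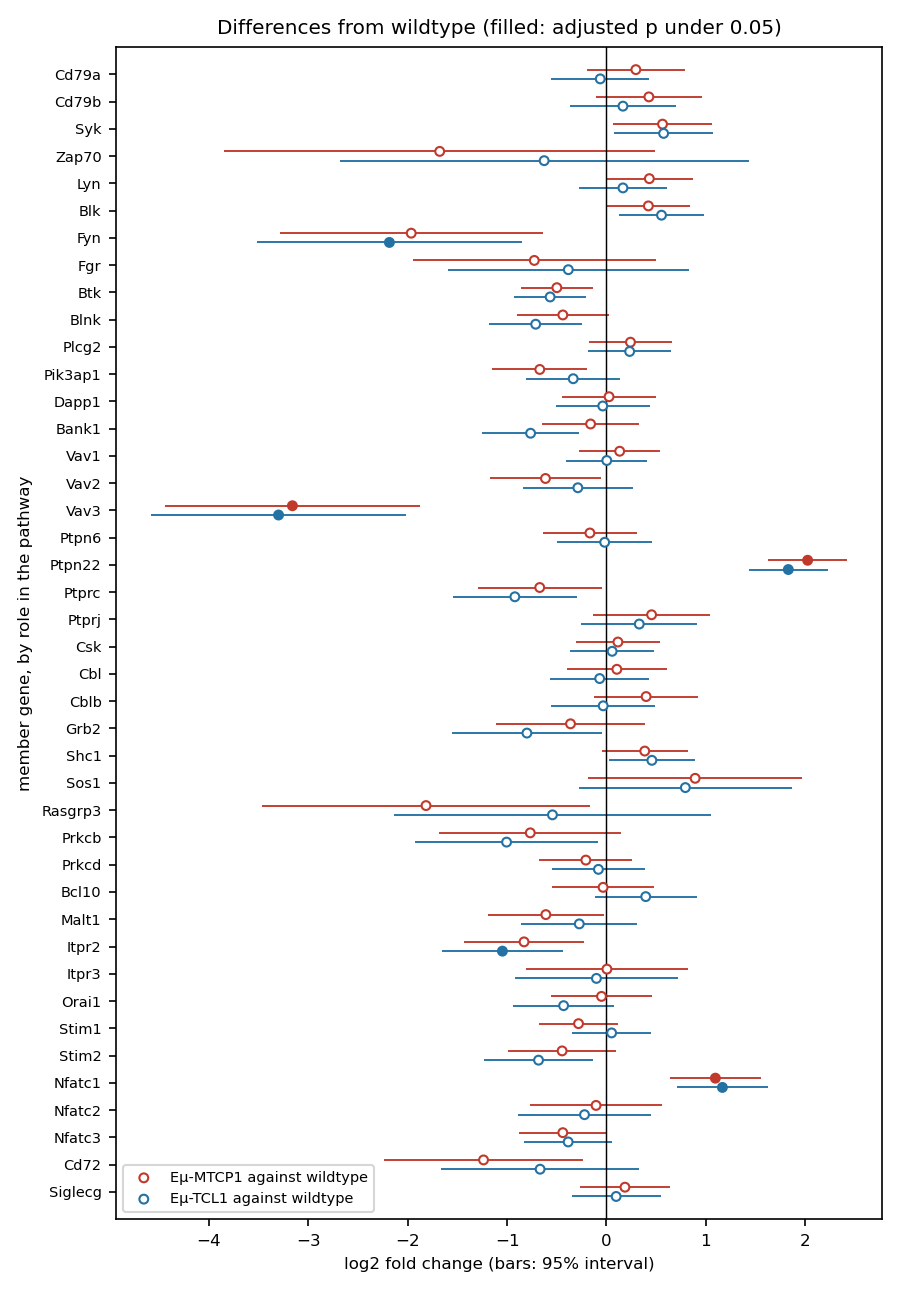
Points are log2 fold changes of the 42 genes in Eµ-MTCP1 (red) and Eµ-TCL1 (blue) B cells against wildtype, and bars are 95% intervals; filled points were called at an adjusted p under 0.05. Ptpn22, Nfatc1 and Vav3 were filled in both colors, and Fyn and Itpr2 in blue alone.

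Downstream of SYK, the genes of the BLNK, BTK and phospholipase complex were not called, though Btk and Blnk were below every wildtype mouse in all 6 transgenic mice. Btk, the kinase inhibited by ibrutinib, stood at 146, 167 and 141 CPM in Eµ-MTCP1 mice Z2551, Z2606 and Z2641, at 137, 163 and 134 CPM in B4376, B4437 and C1594 of the Eµ-TCL1 group, and at 231, 212 and 199 CPM in the wildtype mice Z2754, Z2755 and Z2785. Its log2 fold changes were -0.50 ± 0.16 (95% interval -0.86 to -0.13, adjusted p = 0.0893) and -0.57 ± 0.16 (95% interval -0.93 to -0.20, adjusted p = 0.0577). Blnk, the adaptor that gathers BTK and the phospholipase, stood at 458, 379 and 411 CPM, 417, 256 and 359 CPM, and 601, 549 and 542 CPM in the same order of mice. Its log2 fold changes were -0.44 ± 0.21 (adjusted p = 0.223) and -0.71 ± 0.21 (adjusted p = 0.0613). Without Eµ-MTCP1 mouse Z2641, Btk was called lower in Eµ-TCL1 (-0.61, adjusted p = 0.0486). DESeq2 called Btk lower in both leukemias (adjusted p = 0.0270 and 0.00754) and Blnk lower in Eµ-TCL1 (adjusted p = 0.00800).

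Plcg2, the phospholipase that makes the calcium-releasing messenger, was at 501, 589 and 426 CPM in Eµ-MTCP1 mice Z2551, Z2606 and Z2641, at 482, 517 and 509 CPM in B4376, B4437 and C1594 of the Eµ-TCL1 group, and at 384, 435 and 464 CPM in the wildtype mice Z2754, Z2755 and Z2785. The Eµ-TCL1 mice lay just above the wildtype mice and the Eµ-MTCP1 mice overlapped them. The log2 fold changes were 0.24 ± 0.19 (adjusted p = 0.453) and 0.23 ± 0.19 (adjusted p = 0.480), with 95% intervals of -0.17 to 0.66 and -0.18 to 0.65. In these 3 genes of 1 complex, 2 had negative and 1 had positive log2 fold changes in both leukemias.

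The adaptor genes Pik3ap1, Dapp1 and Bank1 link the receptor to PI3-kinase and calcium release, and none was called. Bank1 stood at 326 to 355 CPM in the Eµ-TCL1 mice, below the 469 to 741 CPM of the wildtype mice and the 446 to 600 CPM of the Eµ-MTCP1 mice (log2 fold change against wildtype -0.76 ± 0.22, adjusted p = 0.0561). Pik3ap1 stood at 63.8 to 91.6 CPM in the Eµ-MTCP1 mice, below the 114 to 125 CPM of the wildtype mice (-0.67 ± 0.22, adjusted p = 0.0819), and at 71.5 to 117 CPM in the Eµ-TCL1 mice. Each of these 2 values was called in 6 of 19 alternatives, among them DESeq2 and both gene count tables with all mice. Both were also called without Eµ-MTCP1 mouse Z2641, Bank1 at -0.81 (adjusted p = 0.0447) and Pik3ap1 at -0.86 (adjusted p = 0.0493). Dapp1 ranged from 36.0 to 60.5 CPM in all mice.

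The Vav genes encode exchange factors that activate small GTPases after receptor engagement, and their order was the same in all groups: Vav1 was highest, Vav2 next and Vav3 lowest per unit of length. Vav1 made 85.6% to 87.7% of the summed Vav level in the wildtype mice, 91.7% to 92.8% in the Eµ-MTCP1 mice and 89.7% to 91.0% in the Eµ-TCL1 mice. Vav1 itself differed little, with log2 fold changes of 0.13 ± 0.18 and 0.00 ± 0.18 (adjusted p = 0.690 and 0.996).

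Vav3 fell in both leukemias. It had 3, 10 and 9 reads in Eµ-MTCP1 mice Z2551, Z2606 and Z2641 and 8, 7 and 8 reads in B4376, B4437 and C1594 of the Eµ-TCL1 group, against 110, 109 and 35 reads in the wildtype mice Z2754, Z2755 and Z2785. That is 0.490 to 1.47 CPM and 0.861 to 1.12 CPM against 5.29 to 13.6 CPM, with no overlap, although the wildtype mice differed among themselves by 2.58-fold. Fitted log2 fold changes were -3.16 ± 0.58 (8.95-fold lower, adjusted p = 0.00743) and -3.30 ± 0.58 (9.85-fold lower, adjusted p = 0.00586). The call held in all 18 alternatives that gave a value in Eµ-TCL1 and in 17 of 18 in Eµ-MTCP1, where transcript length offsets gave -2.42 (adjusted p = 0.0636). In the table on full transcripts, Vav3 had 4 to 19 reads in the 6 transgenic mice, beside 75 to 206 in the wildtype mice.

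The phosphatases of the pathway remove the activating phosphates, and Ptpn22 among them had the smallest adjusted p of the 42 genes. Ptpn22, a phosphatase that acts on SYK and Src family kinases, rose in both leukemias: it stood at 452, 421 and 387 CPM in Eµ-MTCP1 mice Z2551, Z2606 and Z2641 and at 410, 327 and 364 CPM in B4376, B4437 and C1594 of the Eµ-TCL1 group, against 115, 98.4 and 96.7 CPM in the wildtype mice Z2754, Z2755 and Z2785. The lowest transgenic mouse was far above the highest wildtype mouse. Fitted log2 fold changes were 2.02 ± 0.18 (4.07-fold higher, adjusted p = 0.000246) and 1.83 ± 0.18 (3.56-fold higher, adjusted p = 0.000250), and all 19 alternatives called both, with log2 fold changes of 1.69 to 2.11. By mean TPM, Ptpn22 was in place 28 among the 42 genes in wildtype B cells and in place 14 in both leukemias.

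Ptpn6, which encodes the SHP-1 phosphatase recruited by inhibitory receptors, was the most abundant phosphatase gene and did not pass the test (1067 ± 78.6, 1183 ± 240 and 1198 ± 148 CPM in Eµ-MTCP1, Eµ-TCL1 and wildtype, SD, n = 3 each). Ptprc, which encodes CD45, the phosphatase that primes Src family kinases, stood at 447 to 752 CPM for Eµ-MTCP1, 364 to 545 CPM for Eµ-TCL1 and 720 to 1135 CPM for wildtype mice. The Eµ-TCL1 mice lay below the wildtype mice (log2 fold change -0.92 ± 0.28, adjusted p = 0.0686). This value was called in 5 of 19 alternatives, among them DESeq2 and the one without Eµ-MTCP1 mouse Z2641 (-0.97, adjusted p = 0.0358). Ptprj, a receptor phosphatase related in role to CD45, and Csk, the kinase that turns Src family kinases off, had adjusted p-values of 0.312 to 0.884. The ubiquitin ligase genes Cbl and Cblb had log2 fold changes between -0.07 and 0.40 and adjusted p-values of 0.323 or more.

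The bases before the start sites of Ptpn22 and Vav3, which among the 42 genes had the largest rise and fall, are shown for reference. They are the 250 bases before the RefSeq start nearest to the start of each gene's leading transcript, from build GRCm38.p6, both on the plus strand, at chr3:103860027-103860276 for Ptpn22 and chr3:109340433-109340682 for Vav3. RefSeq promoters were given for 37 of the 42 genes. Capitals mark matches, on either strand, to the letters GGAAAA (a core of NFAT sites), ATTTGCAT (the octamer of immunoglobulin promoters), AGGAAGT (ETS factors) or CAGCTG (an E-box). The Ptpn22 stretch held none of these and the Vav3 stretch held 1 ETS match. Of all 32851 promoters in the table, 20.4%, 1.60%, 7.69% and 13.0% held the respective letters, so these matches are a description only.
Ptpn22: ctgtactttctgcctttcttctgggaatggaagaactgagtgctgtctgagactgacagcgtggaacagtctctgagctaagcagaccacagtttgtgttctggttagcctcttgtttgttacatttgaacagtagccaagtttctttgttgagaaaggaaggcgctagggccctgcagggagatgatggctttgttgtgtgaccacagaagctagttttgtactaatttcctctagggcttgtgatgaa
Vav3: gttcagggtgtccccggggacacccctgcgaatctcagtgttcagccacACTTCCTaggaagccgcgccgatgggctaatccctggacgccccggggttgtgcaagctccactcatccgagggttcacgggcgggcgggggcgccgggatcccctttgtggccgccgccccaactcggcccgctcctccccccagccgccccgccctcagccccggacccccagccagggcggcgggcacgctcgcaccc

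The Ras arm carries the signal to the MAP kinases. None of Grb2, Shc1, Sos1 and Rasgrp3 was called, and Rasgrp3 was the most uneven abundant gene of the 42. Rasgrp3, which encodes a diacylglycerol-dependent activator of Ras in B cells, stood at 72.8, 54.2 and 18.8 CPM in Eµ-MTCP1 mice Z2551, Z2606 and Z2641, at 181, 13.0 and 158 CPM in B4376, B4437 and C1594 of the Eµ-TCL1 group, and at 190, 175 and 149 CPM in the wildtype mice Z2754, Z2755 and Z2785. All Eµ-MTCP1 mice were below the wildtype mice, while Eµ-TCL1 mice B4376 and C1594 were at the wildtype level and B4437 was 13.9-fold below B4376. Rasgrp3 had log2 fold changes of -1.82 ± 0.75 (adjusted p = 0.163) and -0.54 ± 0.72 (adjusted p = 0.689). Fitted without mouse B4437, the Eµ-MTCP1 value was -1.85 and was called (adjusted p = 0.0214), while the Eµ-TCL1 value was -0.06 (adjusted p = 0.956). Sos1, a Ras exchange factor, was at 34.2 CPM in Eµ-MTCP1 mouse Z2641 and at 8.82 to 21.4 CPM in the other 8 mice.

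Rasgrp1, the relative of Rasgrp3 that is better known from T cells and is not among the 42 genes, rose in both leukemias, from 50.2 to 53.2 CPM in the wildtype mice to 106 to 121 CPM for Eµ-MTCP1 and 94.4 to 118 CPM for Eµ-TCL1 mice (log2 fold changes 1.17 ± 0.16 and 1.03 ± 0.16, adjusted p = 0.00168 and 0.00320). Of the summed TPM of this pair, Rasgrp1 made 8.62% to 13.6% in the wildtype mice, 40.3% to 86.6% in the Eµ-MTCP1 mice and 20.6% to 78.9% in the Eµ-TCL1 mice. The shares did not overlap between wildtype and transgenic mice, and the leukemic mice differed widely among themselves.

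Protein kinase C and the complex of BCL10 and MALT1 carry the signal to NF-kappaB. None of Prkcb, Prkcd, Bcl10 and Malt1 was called in either leukemia, with adjusted p-values of 0.162 to 0.942. Prkcb, the main B cell isoform, was at 435 CPM in wildtype mouse Z2755 and at 105 to 179 CPM in the other 8 mice, and its log2 fold changes of -0.77 ± 0.41 and -1.01 ± 0.41 were -0.02 and -0.26 without that library (adjusted p = 0.977 and 0.602). Malt1, the protease of the complex, had log2 fold changes of -0.61 ± 0.26 and -0.27 ± 0.26 (adjusted p = 0.183 and 0.563).

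Among the calcium genes, the IP3 receptor gene Itpr2 was low in the leukemias and the store-operated entry genes were not called. Itpr2, one of 3 genes for the channel that releases calcium from the endoplasmic reticulum, stood at 192, 198 and 319 CPM in Eµ-MTCP1 mice Z2551, Z2606 and Z2641, at 217, 255 and 138 CPM in B4376, B4437 and C1594 of the Eµ-TCL1 group, and at 372, 453 and 435 CPM in the wildtype mice Z2754, Z2755 and Z2785. No transgenic mouse reached a wildtype mouse. Itpr2 was lower in Eµ-TCL1 by 2.07-fold (log2 fold change -1.05 ± 0.27, adjusted p = 0.0379), and the Eµ-MTCP1 value was -0.83 ± 0.27 (adjusted p = 0.0882). The Eµ-TCL1 call was lost without B4376 (adjusted p = 0.0825), C1594 (0.120), Z2754 (0.0787), Z2755 (0.111) or Z2785 (0.0858), with log2 fold changes of -1.13 to -0.83 there. The Eµ-MTCP1 value was called in 3 of 19 alternatives, among them DESeq2 and the one without mouse Z2641 (-1.13, adjusted p = 0.0311).

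Per unit of length, the order of Itpr1 and Itpr2 differed between wildtype and leukemic B cells. Itpr2 made 43.2% to 52.6% of the summed TPM of Itpr1, Itpr2 and Itpr3 in the wildtype mice, 22.4% to 33.9% in the Eµ-MTCP1 mice and at most 39.7% in the Eµ-TCL1 mice. Itpr1 made 16.1% to 29.1%, 40.0% to 47.2% and 37.7% to 43.2% in the same order, and was above Itpr2 in all 6 transgenic mice and below it in the 3 wildtype mice. Itpr3 made 26.5% to 31.3%, 23.6% to 36.9% and 17.1% to 41.0% in the same order. Its TPM was just above that of Itpr1 in Eµ-TCL1 mice B4376 (17.9 against 17.4) and C1594 (14.8 against 14.2). Itpr1 itself, which is not among the 42 genes, was called higher in Eµ-MTCP1 (0.69 ± 0.19, adjusted p = 0.0479) but not in Eµ-TCL1 (0.54 ± 0.19, adjusted p = 0.106). Itpr3 did not differ beyond the spread, which in Eµ-TCL1 ran from 96.5 CPM in mouse B4437 to 321 CPM in mouse B4376. Orai1, the plasma membrane calcium channel, and its sensors Stim1 and Stim2 had log2 fold changes between -0.68 and 0.05 and adjusted p-values of 0.115 to 0.910. Stim2 in Eµ-TCL1 was called without wildtype mouse Z2785 (-0.89, adjusted p = 0.0454).

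**Figure D3:**
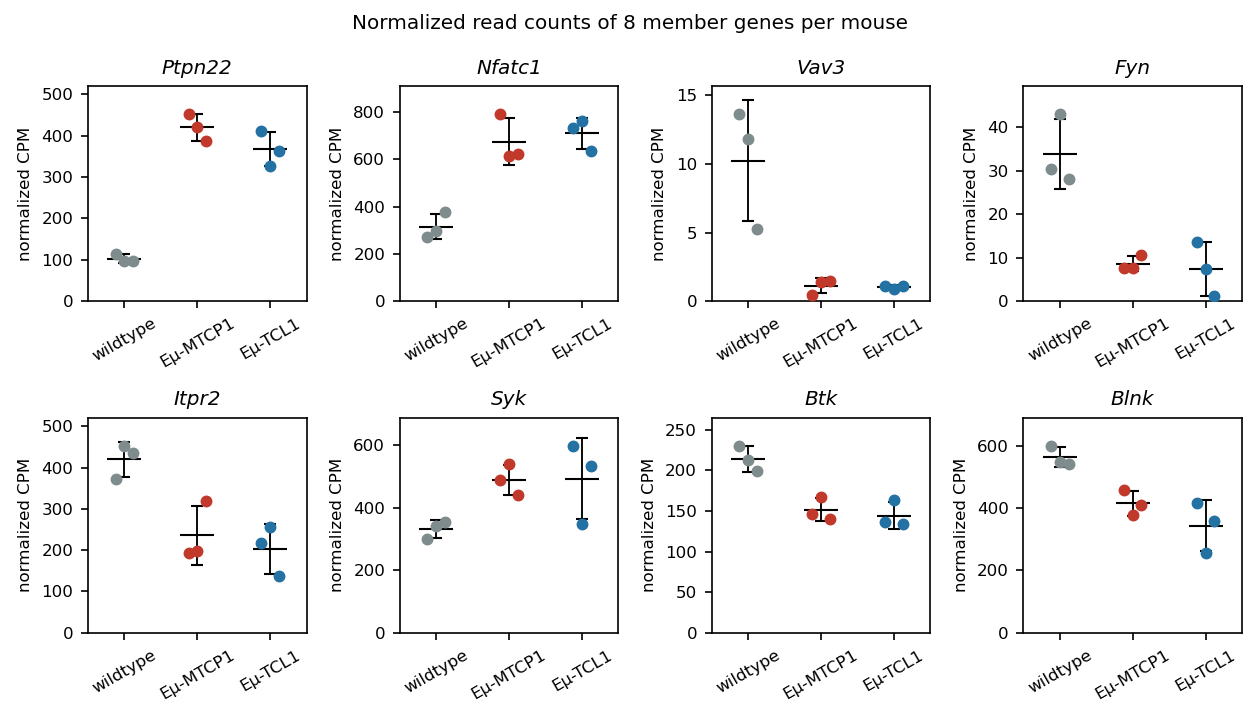
Points are normalized CPM of 8 genes in single mice, and bars the mean ± SD (n = 3 mice per group), on linear axes from 0. The 6 transgenic mice lay above the wildtype mice for Ptpn22 and Nfatc1 and below them for Vav3, Fyn, Itpr2, Btk and Blnk; for Syk, Eµ-TCL1 mouse B4437 overlapped the wildtype mice.

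Of the NFAT transcription factors, which calcium and calcineurin send to the nucleus, only the gene Nfatc1 was called among the 3 tested here. It stood at 791, 613 and 621 CPM in Eµ-MTCP1 mice Z2551, Z2606 and Z2641 and at 732, 761 and 633 CPM in B4376, B4437 and C1594 of the Eµ-TCL1 group, against 273, 298 and 376 CPM in the wildtype mice Z2754, Z2755 and Z2785. The lowest transgenic mouse was above the highest wildtype mouse. Nfatc1 had log2 fold changes of 1.10 ± 0.21 (2.14-fold higher, adjusted p = 0.00844) and 1.17 ± 0.21 (2.24-fold higher, adjusted p = 0.00603), and all 19 alternatives called both, with adjusted p-values of at most 0.0467. Nfatc1 already made 74.6% to 80.6% of the summed TPM of Nfatc1, Nfatc2 and Nfatc3 in the wildtype mice and made 90.2% to 92.3% in the transgenic mice. Nfatc3 had log2 fold changes of -0.44 ± 0.20 and -0.39 ± 0.20 (adjusted p = 0.202 and 0.262), and Nfatc2 of -0.10 ± 0.30 and -0.22 ± 0.30 (adjusted p = 0.855 and 0.696).

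**Figure D4:**
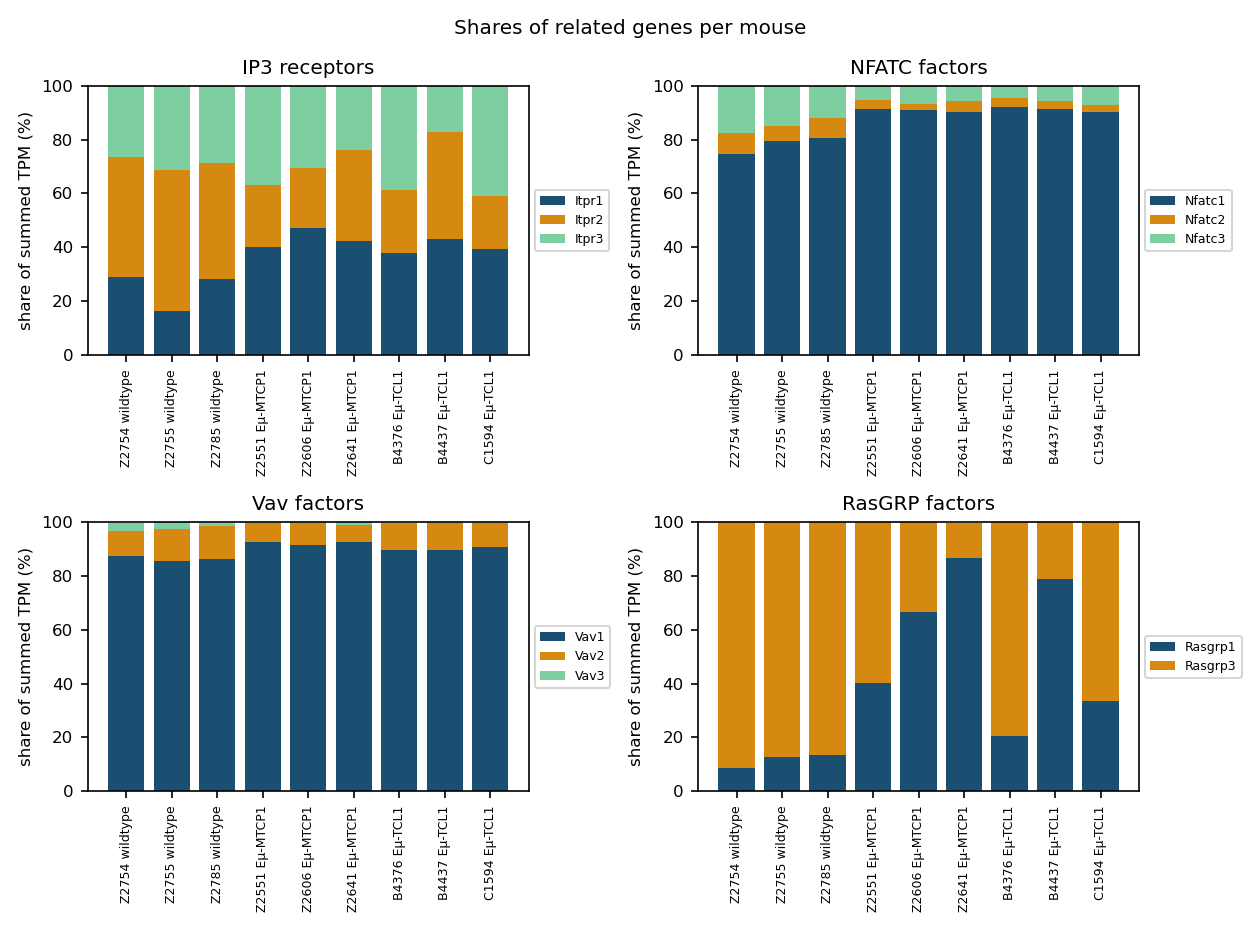
Stacked bars give, for each mouse, the share of each gene in the summed TPM of 4 groups of related genes, in percent. In the leukemic mice the Itpr1, Nfatc1, Vav1 and Rasgrp1 shares were all above those of the wildtype mice.

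The Nfatc1 gene has alternative first exons and alternative 3′ ends. In lymphocytes the short protein made from the upstream promoter and the early 3′ end is known as the form induced by antigen receptor signals, while the downstream promoter is active in resting cells. Its 6 annotated coding transcripts were sorted by start site and 3′ end. In the table on coding sequences, transcripts from the upstream start held 96.8%, 91.2% and 93.7% of the Nfatc1 reads in Eµ-MTCP1 mice Z2551, Z2606 and Z2641 and 93.5%, 94.8% and 95.6% in B4376, B4437 and C1594 of the Eµ-TCL1 group, against 68.5%, 66.8% and 69.3% in the wildtype mice Z2754, Z2755 and Z2785. The short form with the upstream start alone held 70.5% to 83.9% in the 6 transgenic mice, beside 40.2% to 47.7% in the wildtype mice. In level, upstream-start transcripts stood at 635 ± 113 CPM in Eµ-MTCP1, 671 ± 59.8 CPM in Eµ-TCL1 and 216 ± 39.3 CPM in wildtype B cells (SD, n = 3), while downstream-start transcripts stood at 39.4 ± 14.5, 38.2 ± 9.84 and 100.1 ± 14.5 CPM.

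In the table on full transcripts, the upstream start held 85.1% to 92.7% of the reads in the 6 transgenic mice, beside 57.9% to 61.7% in the wildtype mice, again without overlap. The split between short and long forms within each start differed between the tables. In the wildtype mice the downstream short form held 20.6% to 24.2% of the reads on coding sequences and 0% on full transcripts, and the upstream long form held 21.7% to 28.3% and 0%. The upstream short form held 69.6% to 89.9% in the transgenic mice on full transcripts against 57.9% to 61.7% in the wildtype mice, a smaller contrast than on coding sequences. The shares are estimates that divide reads among overlapping transcripts, and no test was run on them.

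**Figure D5:**
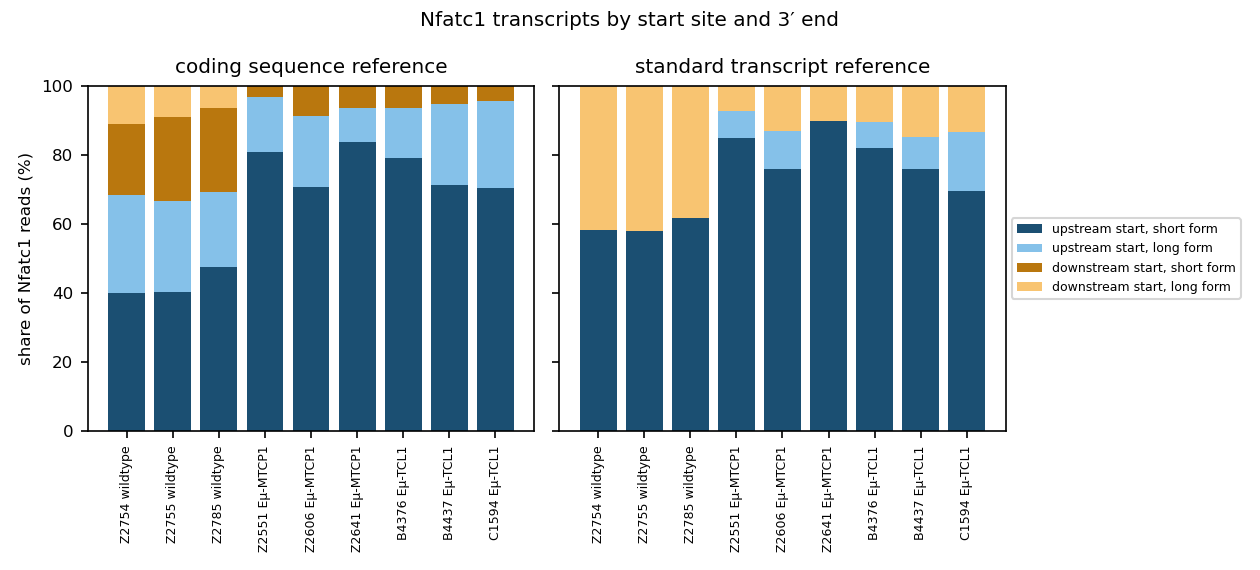
Stacked bars give the share of Nfatc1 reads, in percent, of 4 classes of annotated transcripts in each mouse, on the coding sequence reference (left) and the standard transcript reference (right). Blue classes start at the upstream site, and their joint share was 85.1% or more in all 6 transgenic mice and 69.3% or less in the 3 wildtype mice in both panels.

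The inhibitory co-receptor genes did not pass the test. Cd72, an inhibitory receptor of B cells, stood at 142, 130 and 292 CPM in Eµ-MTCP1 mice Z2551, Z2606 and Z2641, at 157, 507 and 174 CPM in B4376, B4437 and C1594 of the Eµ-TCL1 group, and at 445, 460 and 426 CPM in the wildtype mice Z2754, Z2755 and Z2785. Of the transgenic mice, 5 were below every wildtype mouse and B4437 was above them. The log2 fold changes were -1.24 ± 0.45 (adjusted p = 0.123) and -0.67 ± 0.45 (adjusted p = 0.392), and without B4437 they were -1.27 (adjusted p = 0.0290) and -1.47 (adjusted p = 0.0326). Siglecg, a sialic acid-binding inhibitor of the receptor, stood at 673 to 970 CPM in the 6 transgenic mice, beside 751 to 820 CPM in the wildtype mice (log2 fold changes 0.19 ± 0.20 and 0.10 ± 0.20, adjusted p = 0.604 and 0.808).

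Over the 42 genes, the transgenic and wildtype mice did not overlap for 19 genes in Eµ-MTCP1, or 45.2%, and for 16 in Eµ-TCL1, or 38.1%, beside 29.9% (14.5% higher, 15.4% lower) and 32.6% (16.6% higher, 16% lower) of all genes tested. In the same direction in both leukemias, 4 genes lay above (Blk, Ptpn22, Shc1 and Nfatc1) and 6 below the wildtype mice (Fyn, Btk, Blnk, Vav3, Itpr2 and Nfatc3). Those are 10 of the 42 genes, beside 18.6% of all genes. At an unadjusted p under 0.05 there were 13 and 15 of the 42 genes, beside 25.1% of all genes in each comparison. For 21 of the 42 genes, the 95% intervals of both log2 fold changes lay within 2-fold, among them Cd79a, Cd79b, Lyn, Blk, Btk, Plcg2, Vav1, Ptpn6 and Siglecg. Within groups, the highest of the 3 mice was a median of 1.38 times the lowest in Eµ-MTCP1, 1.43 times in Eµ-TCL1 and 1.28 times in wildtype mice. The spread was over 3-fold for 5, 6 and 1 of the 42 genes.

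Between the leukemias, edgeR called 0 of the 42 genes, beside 5 of all genes (0.0451%; 0.027% higher, 0.018% lower), and DESeq2 also called 0. The smallest adjusted p was 0.678, for Bank1, whose Eµ-TCL1 level was 1.52-fold below the Eµ-MTCP1 one (log2 fold change -0.60 ± 0.22, 95% interval -1.09 to -0.12) and was the only one of the 42 at an unadjusted p under 0.05 (0.0200), beside 6.35% of all genes. The groups did not overlap for Stim1, higher in Eµ-TCL1, and for Cd79a, Bank1, Cblb and Orai1, lower there, 11.9% of the 42 genes beside 10.9% of all genes (5.51% higher, 5.4% lower). The 95% interval of the difference lay within 2-fold for 32 of the 42 genes. For the genes called in both leukemias the differences between Eµ-TCL1 and Eµ-MTCP1 were -0.19 ± 0.17 for Ptpn22 (95% interval -0.58 to 0.19), 0.07 ± 0.20 for Nfatc1 (-0.38 to 0.52) and -0.14 ± 0.59 for Vav3 (-1.45 to 1.17). For Fyn and Itpr2, called in Eµ-TCL1 alone, it ran from -0.97 to 0.28 and from -0.43 to 0.05 over the 19 alternatives. None of these alternatives called either gene. For Syk the difference was 0.01 ± 0.22 (-0.49 to 0.51) and for Btk -0.07 ± 0.16 (-0.43 to 0.30).

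A further 82 genes of the receptor's co-receptors, regulators and downstream arms were looked at beside the 42, of which 76 had enough reads to be tested. In Eµ-MTCP1, 9 were higher and 7 lower, and in Eµ-TCL1, 5 were higher and 6 lower, or 21.1% and 14.5% of those tested, beside 9.52% and 9.29% of all genes. Of these, 9 were called in both comparisons, 4 higher and 5 lower, and the ones reported here are described next or, for Rasgrp1, above. Without wildtype mouse Z2755 the counts were 12 and 8, beside 5.03% and 4.87% of all genes, and without Eµ-TCL1 mouse B4376 they were 16 and 12, beside 8.56% and 7.37%. The Eµ-TCL1 count was 7 without C1594 or without Z2754, beside 5.84% and 4.65% of all genes, and 17 without Z2641, beside 10.9%.

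Around the receptor, the co-receptor gene Cr2 fell most. Cr2, the complement receptor CD21 that lowers the threshold of the BCR, stood at 4.10 to 50.1 CPM for Eµ-MTCP1 and 12.3 to 15.3 CPM for Eµ-TCL1 mice against 611 to 1074 CPM in wildtype mice (log2 fold changes -5.18 ± 0.75 and -5.85 ± 0.77, adjusted p = 0.00206 and 0.00119). Cd5, the negative regulator that defines CLL-like and B-1a cells, rose from 0.744 to 4.84 CPM in wildtype mice to 23.8 to 47.0 and 30.5 to 83.5 CPM in the leukemias (4.01 ± 0.65 and 4.45 ± 0.66, adjusted p = 0.00375 and 0.00228). Cd22, an inhibitory lectin, just missed the threshold in Eµ-TCL1 (-0.90 ± 0.25, adjusted p = 0.0504) and was called there in 11 of 19 alternatives, among them those without Z2606 or Z2641. Its Eµ-MTCP1 value was -0.48 ± 0.25 (adjusted p = 0.256).

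Pag1, the adaptor that holds CSK at the membrane, fell from 15.7 to 24.6 CPM to 2.46 to 5.71 CPM and 2.71 to 4.14 CPM (-2.23 ± 0.39 and -2.56 ± 0.39, adjusted p = 0.00562 and 0.00276).

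Further down, the calcium pump gene Atp2a3 rose and the genes Prkd2, Ppp3cc and Dgka fell in both leukemias. Atp2a3, which refills the endoplasmic reticulum, had log2 fold changes of 1.30 ± 0.24 and 1.02 ± 0.24 (adjusted p = 0.00764 and 0.0235). Prkd2, a diacylglycerol-activated kinase, had -1.13 ± 0.21 and -1.21 ± 0.21 (adjusted p = 0.00766 and 0.00547). Ppp3cc, a catalytic subunit of the calcineurin that activates NFAT, had -1.13 ± 0.24 and -1.93 ± 0.25 (adjusted p = 0.0175 and 0.00108), and Dgka, which removes diacylglycerol, had -1.22 ± 0.22 and -1.01 ± 0.22 (adjusted p = 0.00679 and 0.0164). The Ppp3cc call in Eµ-MTCP1 was lost without Z2551, Z2641 or Z2754 (adjusted p = 0.0559 without Z2551 and 0.0715 without Z2754, and just over the threshold without Z2641). The Atp2a3 call in Eµ-TCL1 was lost without B4437, C1594, Z2754 or Z2755 (adjusted p = 0.0585, 0.0935, 0.0920 and 0.0673), and that of Dgka without C1594 or Z2754 (adjusted p = 0.0718 and 0.0565).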

How the data were processed

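RNA-sequencing libraries of splenic B cells from 9 mice, 3 per group as given by the labels, were analysed from the deposited tables. Deposited transcript tables hold estimated counts and TPM values from Salmon 1.0.0, which the authors ran on a reference of coding sequences (57871 transcripts, 17 of them human), and again on 140748 standard transcripts, with GRCm38.p4 named as the build in the submitters' processing notes. Whole-number counts per gene were deposited by the authors for all genes and after their CLEAR filter on coverage. The submitters' processing notes name HISAT2 2.0.6, Subread and featureCounts, but do not say which of them gave these counts. The log2 values of the human transgenes are normalized values deposited by the authors. Columns of fold changes and p-values from the authors' own comparisons were not used. 0 columns were left unmapped.

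Transcripts were summed to genes with GENCODE M21 (the study names release 23); transcripts left unassigned held at most 0.226% of reads. Sums were rounded, filtered with filterByExpr, scaled by TMM and tested with edgeR 4.0.16 (glmQLFit and glmQLFTest, R 4.3.3) on all 9 libraries, with Benjamini-Hochberg adjustment; SE is the log2 fold change divided by the square root of F. The fit was also run on counts simulated from its own estimates, which checks the code and not how well the model suits these libraries. Each library is 1 mouse, and intervals cover the spread between mice. Coding-sequence counts leave out reads in UTRs. How reads were split between paralogs was not tested.

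Alternatives (19) were RLE size factors, library size alone, immunoglobulin genes left out, no expression filter, DESeq2 1.42.0, transcript length offsets, the standard reference, both gene count tables, only the groups compared, and leaving out each library. The genes and lists were chosen with earlier results of these data known. All 42 genes were accounted for; full values were given for called ones and for Cd79a, Cd79b, Syk, Zap70, Lyn, Btk, Blnk and Plcg2, and the other members named, Rasgrp3 and Cd72 among them, were chosen after their values were seen. Of the other 82 genes, those called in both comparisons plus a few others such as Cd22 and Cd5 were to be named; some of these genes are not reported here; Itpr1 was added for the IP3 receptor shares. Erythroid, platelet and plasma cell markers were summed too (22.4 to 313, 0.164 to 2.46 and 185 to 3263 CPM).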

Additional observations from a re-analysis of the deposited data

How the results depend on the processing

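No paired analysis was possible because the libraries come from different mice and the labels, which carry no replicate numbers, tie none of them together. Ptpn22 and Nfatc1 were called in both comparisons with wildtype under all 19 alternatives, and Vav3 in all that gave a value except 1. No called value of a named gene reversed. The number of the 42 genes called in Eµ-MTCP1 moved from 3 to 7 with library size alone (2 higher, 5 lower), 8 with DESeq2 and 6 with only the groups compared, beside 10.2%, 14.8% and 9.21% of all genes, and ranged from 3 to 5 when single libraries were left out. In Eµ-TCL1 it moved from 5 to 9 with library size alone (2 higher, 7 lower) and 10 with DESeq2, beside 9.41% and 15.3% of all genes, and ranged from 3 to 8 when single libraries were left out. In the comparisons and settings just named, other than leaving out libraries, the share of the 42 genes called was above that of all genes. It was below that share in others. In Eµ-MTCP1, 2 genes were called with transcript length offsets, beside 8.33% of all genes, and 3 with RLE size factors, beside 9.61%. In Eµ-TCL1, 4 were called with only the groups compared, beside 10.9%. Further settings lay on either side. Library size alone shifted the median of all genes by -0.26 for Eµ-MTCP1 and -0.15 for Eµ-TCL1 on the log2 scale, and the added lower calls are relative to that shift. For the other pathway genes, DESeq2 called 20 in Eµ-TCL1 in place of 11 and 1 (Grap2) between the leukemias in place of 0; leaving out single libraries gave 12 to 16 for Eµ-MTCP1 and 7 to 17 for Eµ-TCL1. Over all genes, DESeq2 called 1648 and 1694 in place of 1057 and 1031, leaving out single libraries gave 527 to 1045 and 529 to 1242, and library size alone gave 397 higher and 740 lower in Eµ-MTCP1 and 452 and 599 in Eµ-TCL1, against 606 and 451, and 570 and 461. Between the leukemias, all genes called were 5, 16 without the expression filter, 77 with DESeq2, 0 with the CLEAR-filtered counts and 5 to 8 without single libraries. The causes of these shifts were not tested. Of the 42 genes, 40 could be tested on the CLEAR-filtered counts. Depth limits Zap70 and Vav3, with 1 to 39 and 3 to 110 reads.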
